A study of Mus musculus with 12 samples.

Results

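The 45 genes described here code for the ligands, antagonists, receptors, Smad proteins and Id target genes of the bone morphogenetic protein (BMP) and transforming growth factor-beta (TGF-beta) pathways. They were chosen by name, and all 45 were found among the 24525 gene rows of the count tables. RNA-seq input libraries came from neural stem/progenitor cells (NSPCs) of E14.5 forebrain on a C57BL/6 background, grown as neurospheres at passage P1 with 20 ng/ml EGF and 10 ng/ml bFGF and given no treatment. Of these, 3 libraries were wild type and 3 were *Ythdf2-/-*. The m6A-IP libraries of the same cells were not analysed here. *Ythdf2* is a cytoplasmic reader of N6-methyladenosine (m6A) in mRNA and promotes the decay of the transcripts it binds. The *Ythdf2-/-* embryos carry a germline deletion made by ubiquitous Cre over LoxP sites around the 5′ UTR and exon 1, so the gene is lost in every cell type. The study describes the replicates as biological. The labels do not say whether each came from a separate embryo or culture, so p-values measure only the spread between these libraries.

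Members of this ligand family bind pairs of type II and type I serine/threonine kinase receptors. The activated type I receptor phosphorylates receptor-regulated Smads, which are *Smad1*, *Smad5* and *Smad9* below BMP and *Smad2* and *Smad3* below TGF-beta and activin, and these join *Smad4* and enter the nucleus. The Id genes are classical targets of the BMP branch, and their products block proneural helix-loop-helix factors. In forebrain progenitors, BMP signalling is known for patterning the dorsal midline and for favouring astrocyte over neuron formation.

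The Id genes stand at the end of the BMP branch, and the sequences upstream of *Id2*, *Id3* and *Id4* are shown, the 3 of the 4 Id genes with a window in the table used. The bases are the 250 before the annotated start of each gene, from RefSeq on GRCm38.p6 (the assembly also called mm10), 5′ to 3′ on the gene's strand: chr12:25096093-25096342 (minus strand) for *Id2*, chr4:136143572-136143821 (plus strand) for *Id3* and chr13:48260866-48261115 (plus strand) for *Id4*. Capitals mark GGCGCC, a GC-rich element bound by *Smad1* and *Smad5*, and CAGAC, which holds the core of the Smad-binding element, on either strand.
*Id2*: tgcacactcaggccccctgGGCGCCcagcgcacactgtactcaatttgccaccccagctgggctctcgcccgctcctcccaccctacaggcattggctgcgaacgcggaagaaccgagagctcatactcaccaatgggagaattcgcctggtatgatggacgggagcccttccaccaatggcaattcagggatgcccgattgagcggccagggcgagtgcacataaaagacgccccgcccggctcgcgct
*Id3*: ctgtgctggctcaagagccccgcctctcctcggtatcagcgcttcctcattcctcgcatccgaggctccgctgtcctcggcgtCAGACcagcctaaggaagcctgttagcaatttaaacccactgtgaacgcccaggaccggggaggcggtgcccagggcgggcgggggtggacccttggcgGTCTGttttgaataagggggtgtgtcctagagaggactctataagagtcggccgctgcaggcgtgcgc
*Id4*: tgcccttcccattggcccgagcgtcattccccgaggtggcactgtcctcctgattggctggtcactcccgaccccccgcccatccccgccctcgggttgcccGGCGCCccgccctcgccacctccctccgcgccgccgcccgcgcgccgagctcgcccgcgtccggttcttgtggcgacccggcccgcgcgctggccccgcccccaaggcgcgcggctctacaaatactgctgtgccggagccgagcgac
*Id2* and *Id4* each held 1 GGCGCC and 0 CAGAC, and *Id3* held 0 GGCGCC and 2 CAGAC. Of 32851 such windows of mouse genes, 9.59% held GGCGCC and 42.2% held CAGAC. Among the 32 pathway genes with a window in the table, 11 held GGCGCC and 15 held CAGAC. These matches describe letters in a window, not bound sites.

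*Ythdf2* itself was checked first. It was counted at 71.9, 73.3 and 91.4 counts per 1000000 reads (CPM, with TMM scaling of library sizes) in wild-type replicates 1, 2 and 3 and at 11.7, 14.7 and 11.1 CPM in *Ythdf2-/-* replicates 1, 2 and 3. The genotypes did not overlap, as the labels predict, and the log2 fold change was -2.66 (SE 0.18, edgeR adjusted p = 0.055). Libraries held 11029827 to 13185778 counted reads. Wild-type replicate 3 stood apart from the other 5: it lay at 91.0 on the first principal component of the most variable genes, against -30.6 to -6.0 for the rest. That component held 74.2% of the variance of those genes. Progenitor markers were present in every library, with *Nes* at 264 to 1212 CPM and *Sox2* at 316 to 551 CPM. Because of that library, results are given with all 6 libraries and without it.

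Of the 45 pathway genes, 31 averaged at least 1 RPKM (CPM divided by gene length in kb) over the 6 libraries. On this length-scaled level the order was led by *Id2* (87.6 RPKM), *Id3* (73.7), *Smad5* (48.7), *Bmpr1a* (43.4), *Bmp1* (42.9), *Smad4* (29.7) and *Id4* (22.6). *Id2* was above 93.6% of the 13112 genes tested and *Bmp1* above 85.2%. Each gene's range over the 6 libraries overlapped that of the next in order for all 44 neighbouring pairs, so the order of neighbours is not resolved. At the other end, 8 genes were too low to be tested: *Bmp2*, *Bmp4*, *Bmp5*, *Bmp6*, *Tgfb1*, *Grem1*, *Acvrl1* and *Smad6*. Apart from *Bmp4*, none of these 8 reached more than 15 reads in any library. The cells therefore had readily counted transcripts for BMP receptors, Smads and Ids, and for *Bmp7* as the one BMP ligand above 1 RPKM.

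**Figure D1:**
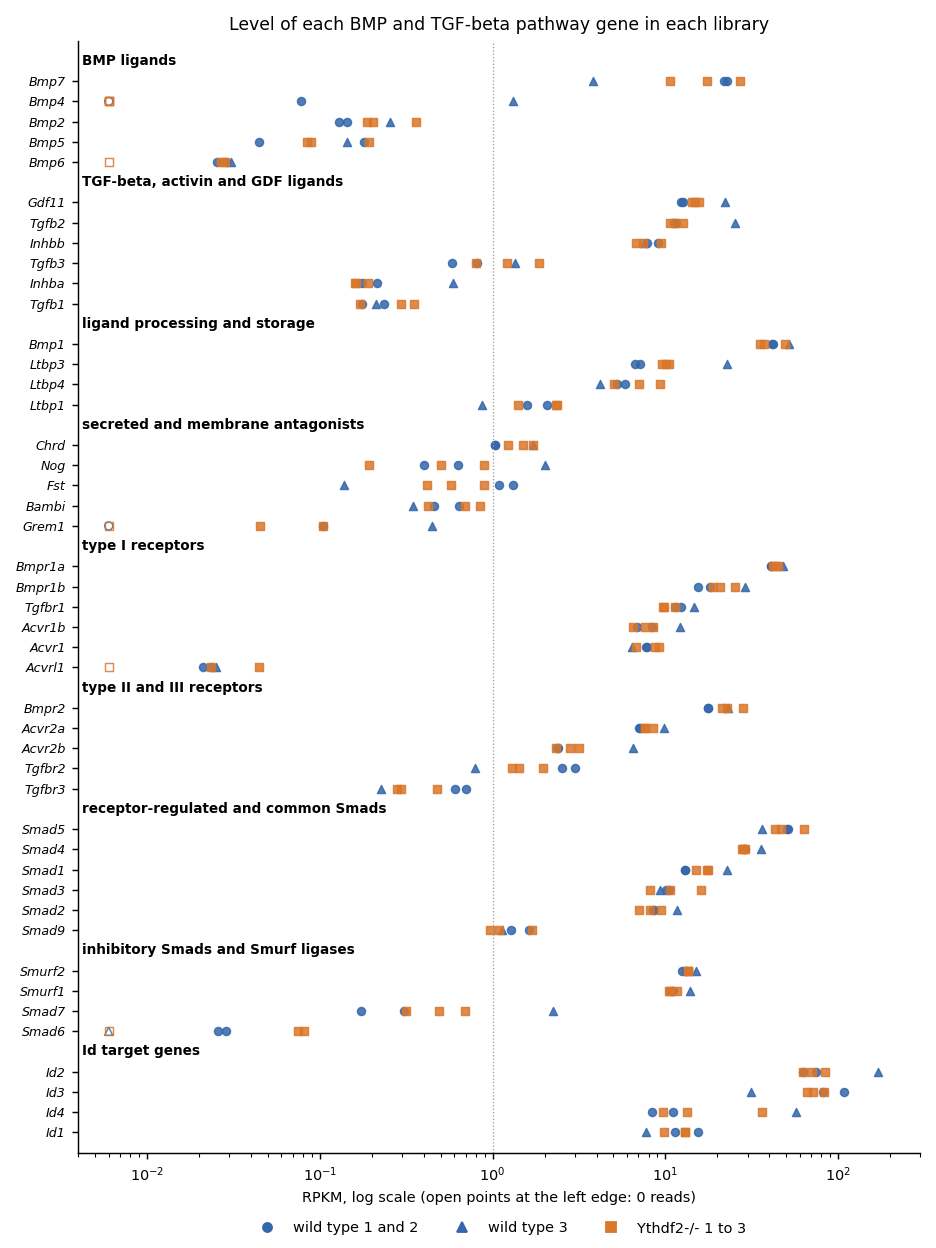
RPKM on a log scale (x axis) of each of the 45 pathway genes in each of the 6 libraries, grouped by role and ordered by mean within a role; circles are wild-type replicates 1 and 2, triangles wild-type replicate 3 and squares the 3 *Ythdf2-/-* libraries, with open points for 0 reads. *Id2*, *Id3*, *Smad5*, *Bmpr1a* and *Bmp1* lie farthest to the right, and the triangle lies away from the other points for genes such as *Bmp7*, *Ltbp3*, *Smad7* and *Id2*.

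Whether loss of *Ythdf2* goes with a change in this pathway is the comparison the design implies. Of the 45 genes, 37 passed the filter on low counts. In edgeR's quasi-likelihood test over 13112 genes, 0 of the 37 passed an adjusted p of 0.05, where 0.0% of all genes did. At an unadjusted p under 0.05 the count was also 0 of 37, where 3.63% of all genes tested reached it. DESeq2 and limma-voom with sample quality weights likewise called 0 pathway genes at an adjusted p of 0.05, where they called 0.237% and 1.15% of all genes. The log2 fold changes (*Ythdf2-/-* over wild type) of the 37 ran from -0.94 to 0.50, with a median of -0.07 beside -0.01 over all genes tested. Their median standard error was 0.30, beside 0.25 over all genes, so a change of the size seen in most of them would not be resolved by 3 libraries against 3.

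A single pathway gene had genotypes that did not overlap, which is 2.70% of the 37, where 10.2% of all genes tested did so. That gene was *Tgfbr1*, the type I receptor for TGF-beta. It was counted at 69.4, 63.8 and 82.6 CPM in wild-type replicates 1, 2 and 3 and at 55.2, 63.5 and 54.6 CPM in *Ythdf2-/-* replicates 1, 2 and 3. The 3 wild-type values were above the 3 *Ythdf2-/-* values, with a gap of less than 1 CPM between wild-type replicate 2 and *Ythdf2-/-* replicate 2. Its log2 fold change of -0.32 (SE 0.15) had the smallest unadjusted p of the list, 0.072 by edgeR, and an adjusted p of 0.999. On the deposited FPKM its direction was the opposite, at 0.17 (SE 0.44) with a pseudocount of 1 and 0.18 (SE 0.42) with 0.1. Among the pathway genes whose fold changes are given here, the direction on FPKM was also the opposite with both pseudocounts for *Bmp7*, *Ltbp3*, *Acvr2b*, *Id4*, *Bmp1*, *Bmpr1a* and *Bmpr1b*, and with 0.1 alone for *Tgfb2*. With library sizes unscaled by TMM, the groups of *Tgfbr1* overlapped.

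Much of the spread within wild type lay in its replicate 3. In that library 10 of the 37 pathway genes lay more than 2-fold outside the range of the other 5 libraries (27.0%), where 11.2% of all genes tested did. Of these, 7 were above the others (*Tgfb2*, *Inhba*, *Ltbp3*, *Nog*, *Acvr2b*, *Smad7* and *Id2*) and 3 were below (*Bmp7*, *Fst* and *Id3*). Over the other 5 libraries together, only *Nog* in *Ythdf2-/-* replicate 2 lay as far outside the rest. Wild-type replicate 3 was the highest of the 6 libraries for 20 pathway genes (54.1%, where it was for 33.8% of all genes) and the lowest for 11 (29.7%, where it was for 34.4%). These counts describe 1 library and carry no test.

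**Figure D2:**
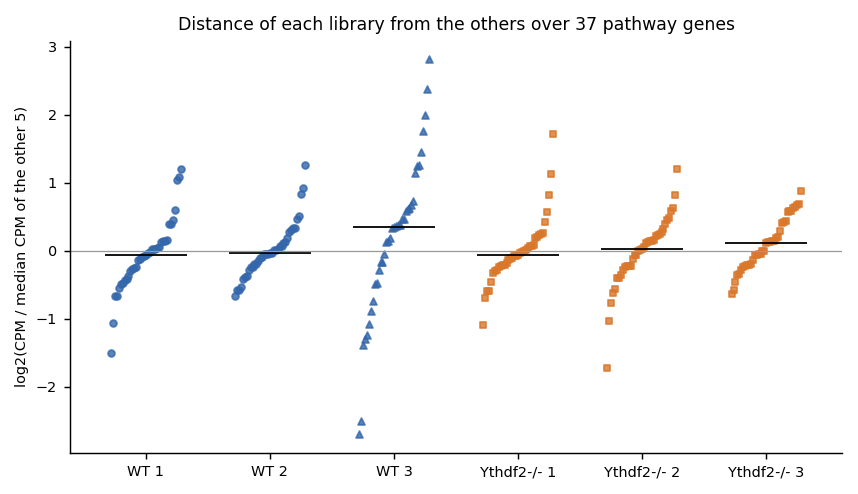
log2 of the CPM in a library over the median CPM of the other 5 (y axis) for the 37 pathway genes tested, one column of points per library, with the median as a black line. Wild-type replicate 3 has the widest column, with 10 genes more than 2-fold outside the range of the others.

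Among the BMP ligands of the 45 genes, *Bmp7*, a ligand made by dorsal midline and meninges in the embryo, was the only one at a level that could be tested. It had 83.4, 80.1 and 14.1 CPM in wild-type replicates 1, 2 and 3 and 63.7, 39.3 and 99.3 CPM in *Ythdf2-/-* replicates 1, 2 and 3. Wild-type replicate 3 was 2.79-fold below the lowest of the other libraries, and the *Ythdf2-/-* values themselves spanned 39.3 to 99.3 CPM. The log2 fold change was 0.19 (SE 0.67) with all libraries and -0.28 (SE 0.35) without that library, so neither its size nor its direction was settled. *Bmp4*, a ligand commonly used to drive astrocyte formation in culture, had 28 reads in wild-type replicate 3, 2 reads in wild-type replicate 2 and 0 in the other 4 libraries. Nearly all *Bmp4* reads thus came from the library with the fewest *Bmp7* reads. *Bmp2* had 6 to 15 reads per library, *Bmp5* 2 to 10 and *Bmp6* 0 or 1, and these 3 ligands show no separation by genotype at so few reads.

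The other ligands were led by *Gdf11*, a ligand related to myostatin that signals through activin receptors (15.3 RPKM). It had 71.7, 73.4 and 129 CPM in wild-type replicates 1, 2 and 3 and 86.3, 91.1 and 83.6 CPM in *Ythdf2-/-* replicates 1, 2 and 3. All 3 *Ythdf2-/-* libraries lay between wild-type replicates 1 and 2 below and wild-type replicate 3 above. *Tgfb2*, the main TGF-beta isoform in this list by level, had 59.3, 57.5 and 129 CPM in wild-type and 58.3, 54.5 and 64.4 CPM in *Ythdf2-/-* replicates 1, 2 and 3. The 5 libraries other than wild-type replicate 3 lay within 54.5 to 64.4 CPM, and the log2 fold change was -0.47 (SE 0.34) with that library and 0.02 (SE 0.11) without it. *Inhba*, the activin A subunit, had 1.11, 1.37 and 3.75 CPM in wild-type and 1.02, 1.04 and 1.21 CPM in *Ythdf2-/-* replicates 1, 2 and 3, again with the same library high. *Inhbb*, the activin B subunit, ranged from 28.6 to 40.3 CPM and *Tgfb3* from 1.97 to 6.29 CPM, with the genotypes overlapping for both. *Tgfb1* had 5 to 9 reads per library.

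Ligand processing was led by *Bmp1*, a metalloprotease that cleaves procollagen and the antagonist chordin. It had 155, 158 and 197 CPM in wild-type and 139, 185 and 133 CPM in *Ythdf2-/-* replicates 1, 2 and 3, with a log2 fold change of -0.16 (SE 0.18), and -0.04 (SE 0.16) without wild-type replicate 3. On the deposited FPKM its direction was the opposite, at 0.23 (SE 0.78) with a pseudocount of 1 and 1.03 (SE 1.65) with 0.1. The latent TGF-beta binding protein gene *Ltbp3* had 37.1, 34.8 and 118 CPM in wild-type and 52.1, 49.8 and 54.2 CPM in *Ythdf2-/-* replicates 1, 2 and 3. The *Ythdf2-/-* values agreed within 5 CPM of each other, between wild-type values lower in 2 libraries and higher in 1. *Ltbp1* (5.58 to 15.05 CPM) and *Ltbp4* (19.6 to 43.8 CPM), of the same family, had their lowest value in wild-type replicate 3. The strand setting of the counting was not given, so counts are uncertain for *Acvr2a*, *Acvrl1*, *Bmp4*, *Bmp5*, *Bmp6*, *Bmpr1a*, *Chrd*, *Fst*, *Id4*, *Tgfb2* and *Tgfb3*, which share 82 to 1878 exon bases with a gene on the other strand.

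The antagonists were low. *Chrd*, coding for chordin, which traps BMPs outside the cell, had the highest level of the 5 (1.38 RPKM), with 3.42, 3.43 and 5.67 CPM in wild-type and 4.09, 5.70 and 4.99 CPM in *Ythdf2-/-* replicates 1, 2 and 3. *Nog*, coding for the BMP trap noggin, had 0.770, 1.22 and 3.84 CPM in wild-type and 1.71, 0.370 and 0.966 CPM in *Ythdf2-/-* replicates 1, 2 and 3. *Fst*, coding for the activin trap follistatin, had 3.51, 2.90 and 0.366 CPM in wild-type and 1.11, 2.37 and 1.53 CPM in *Ythdf2-/-* replicates 1, 2 and 3. So in wild-type replicate 3 *Nog* was the highest and *Fst* the lowest of the 6 libraries, and without that library *Fst* was lower in each *Ythdf2-/-* library than in both wild-type ones. The log2 fold change of *Fst* was -0.44 (SE 0.75) with all 6 libraries, -0.93 (SE 0.39, adjusted p = 0.30 by edgeR) without wild-type replicate 3 and 0.016 (SE 0.86) without wild-type replicate 1. *Bambi*, a pseudoreceptor that blocks type I receptors, ranged from 1.74 to 4.26 CPM, and *Grem1*, coding for the BMP trap gremlin, had 0 to 8 reads with the 8 in wild-type replicate 3.

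Type I receptors were led by *Bmpr1a*, the broadly used BMP receptor, with 225, 225 and 262 CPM in wild-type and 245, 239 and 231 CPM in *Ythdf2-/-* replicates 1, 2 and 3. Its log2 fold change was 0.01 (SE 0.13, among the smallest of the list) with all libraries and 0.08 (SE 0.09) without wild-type replicate 3. *Bmpr1b*, the second BMP type I receptor, had 79.3, 93.0 and 149 CPM in wild-type and 130.5, 107 and 97.2 CPM in *Ythdf2-/-* replicates 1, 2 and 3. The genotypes overlapped only through wild-type replicate 3 (log2 fold change 0.06, SE 0.26, and 0.37, SE 0.15, without it). *Acvr1* (19.6 to 27.97 CPM), a receptor for BMPs, and *Acvr1b* (21.4 to 39.8 CPM), the activin type I receptor, overlapped between genotypes. *Acvrl1*, a receptor best known from endothelium, had 0 to 2 reads per library.

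*Bmpr2*, the BMP type II receptor, had the highest level among type II and III receptors. It had 195, 196 and 257 CPM in wild-type and 235, 254 and 313 CPM in *Ythdf2-/-* replicates 1, 2 and 3. Each *Ythdf2-/-* library was above wild-type replicates 1 and 2 and wild-type replicate 3 lay within the *Ythdf2-/-* range, giving a log2 fold change of 0.31 (SE 0.18). *Acvr2b*, an activin type II receptor, had 25.2, 25.4 and 69.3 CPM in wild-type and 29.9, 33.5 and 24.6 CPM in *Ythdf2-/-* replicates 1, 2 and 3, and its relative *Acvr2a* ranged from 40.2 to 56.2 CPM. The first of these was 2.07-fold above every other library in wild-type replicate 3. *Tgfbr2*, the TGF-beta type II receptor, had 14.3, 12.1 and 3.75 CPM in wild-type and 6.74, 9.26 and 6.20 CPM in *Ythdf2-/-* replicates 1, 2 and 3. *Tgfbr3*, the co-receptor betaglycan, had 3.68, 4.27 and 1.37 CPM in wild-type and 1.79, 1.70 and 2.90 CPM in *Ythdf2-/-* replicates 1, 2 and 3. For both, wild-type replicates 1 and 2 were above all 3 *Ythdf2-/-* libraries and wild-type replicate 3 was below them.

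*Smad5* was the most abundant Smad by RPKM, with 339, 333 and 239 CPM in wild-type and 308, 286 and 418 CPM in *Ythdf2-/-* replicates 1, 2 and 3. The groups overlapped, with wild-type replicate 3 the lowest and *Ythdf2-/-* replicate 3 the highest of the 6 libraries (log2 fold change 0.15, SE 0.22, and 0.01, SE 0.18, without wild-type replicate 3). The other BMP Smads were *Smad1* (39.5 to 69.1 CPM) and *Smad9* (5.18 to 9.09 CPM). The TGF-beta Smads *Smad2* (61.7 to 102 CPM) and *Smad3* (41.8 to 81.7 CPM) and the common *Smad4* (92.9 to 119 CPM) varied less than 2-fold over the libraries. *Smad7*, the inhibitory Smad that TGF-beta and BMP signals induce, had 9, 18 and 108 reads in wild-type and 36, 19 and 27 reads in *Ythdf2-/-* replicates 1, 2 and 3, which is 0.770, 1.37 and 9.88 CPM against 3.07, 1.41 and 2.17 CPM. Wild-type replicate 3 was 3.22-fold above the highest of the others, and the log2 fold change was -0.85 (SE 0.96) with it and 1.02 (SE 0.48) without it. *Smad6* had 0 to 3 reads per library. *Smurf2*, a ubiquitin ligase for Smads and receptors, was steady at 66.3, 69.9 and 80.2 CPM in wild-type and 72.7, 72.6 and 72.3 CPM in *Ythdf2-/-* replicates 1, 2 and 3, and *Smurf1* ranged from 56.2 to 74.0 CPM.

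The Id genes did not move together. *Id2* had 80.3, 94.6 and 216 CPM in wild-type and 107, 80.3 and 90.2 CPM in *Ythdf2-/-* replicates 1, 2 and 3. *Id3* had 103, 78.0 and 29.8 CPM in wild-type and 63.4, 79.2 and 68.1 CPM in *Ythdf2-/-* replicates 1, 2 and 3. In wild-type replicate 3 *Id2* was 2.02-fold above every other library while *Id3* was 2.13-fold below every other one. *Id4* had 13.9, 18.3 and 94.8 CPM in wild-type and 60.1, 22.2 and 16.1 CPM in *Ythdf2-/-* replicates 1, 2 and 3, so it was high in wild-type replicate 3 and, less so, in *Ythdf2-/-* replicate 1. *Id1* ranged from 7.23 to 14.55 CPM, with its lowest value in wild-type replicate 3. The log2 fold changes were -0.49 (SE 0.39) for *Id2*, -0.0011 (SE 0.42) for *Id3*, -0.37 (SE 0.86) for *Id4* and 0.05 (SE 0.30) for *Id1*. Without wild-type replicate 3 they were 0.08 (SE 0.15) for *Id2*, -0.36 (SE 0.16) for *Id3*, 1.02 (SE 0.58) for *Id4* and -0.17 (SE 0.22) for *Id1*, so 3 of the 4 changed direction and none had an unadjusted p under 0.05 by edgeR. In wild-type replicate 3, genes with the same motif in such windows lay both above and below wild-type replicates 1 and 2. With GGCGCC, *Id2*, *Id4*, *Bmpr1a*, *Bmpr2*, *Chrd*, *Grem1*, *Smurf2* and *Tgfbr1* were above both, and *Ltbp4*, *Smad5* and *Smad9* were below both. With CAGAC, *Ltbp3*, *Acvr2b* and *Tgfb2* were among those above both, and *Id3*, *Ltbp1*, *Smad5* and *Tgfbr2* were below both. *Grem1*, *Smad5*, *Smurf2* and *Tgfbr1* held both motifs. Whether motif and direction go together was not tested. *Id4* and *Id1* were described after their values were seen.

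**Figure D3:**
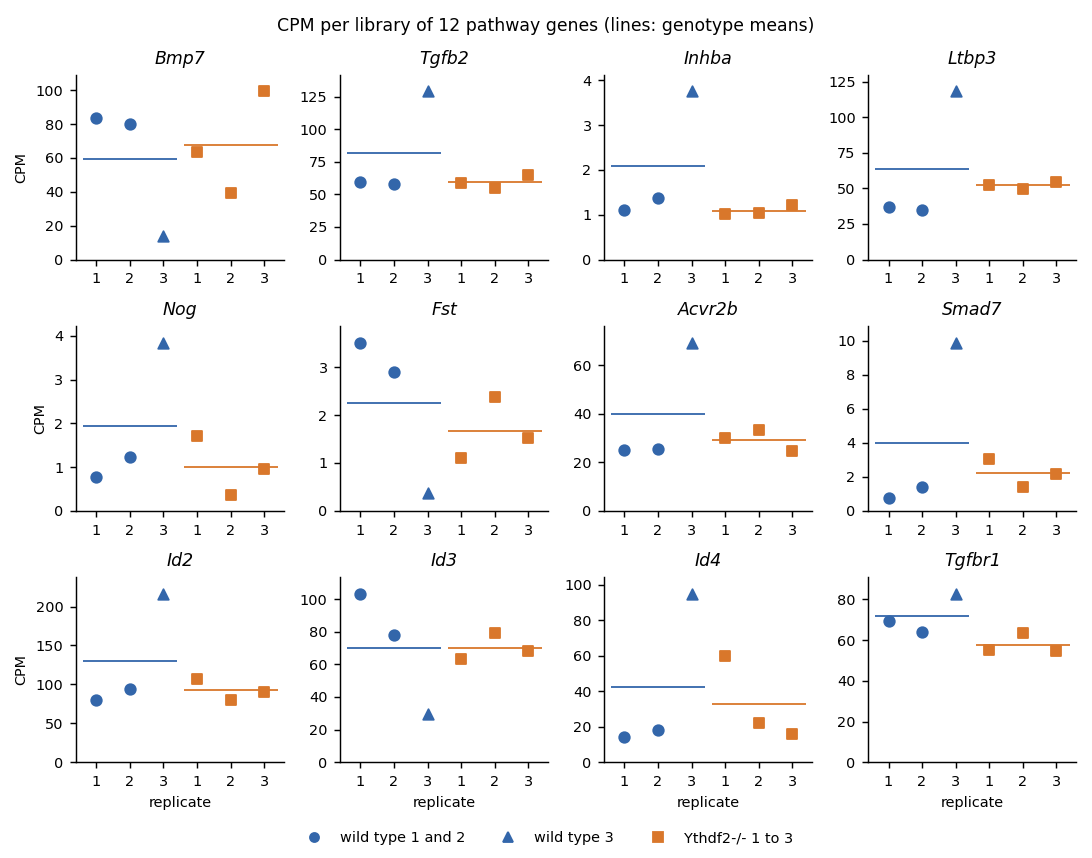
CPM (y axes, from 0) in each of the 6 libraries for 12 pathway genes, with wild type as blue circles (replicates 1 and 2) and triangle (replicate 3), *Ythdf2-/-* as orange squares, and genotype means as lines. Wild-type replicate 3 is the extreme point for each gene shown, low for *Bmp7*, *Fst* and *Id3* and high for the others, and *Tgfbr1* is the gene whose genotypes do not overlap.

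Some markers of other cell types moved with wild-type replicate 3, and their part in these values was not tested. Summed over 10 oligodendrocyte lineage markers, that library had 4374 CPM, where the other 5 had 1739 to 2169 CPM, and 4 of 9 tested markers were more than 2-fold above all others. Summed over 8 neuron markers it had 1989 CPM against 1091 to 1331 CPM, with 3 of 8 more than 2-fold above all others. The 8 astrocyte markers summed to 9630 CPM there against 2881 to 6909 CPM, with 2 of 8 more than 2-fold above all others. That sum was highest through *Gfap*, the astrocyte filament gene, at 3046 CPM against 5.55 to 625 CPM: without it the other 7 summed to 6583 CPM, inside the 2793 to 6781 CPM of the other 5 libraries. The 8 progenitor markers summed to 3399 CPM there against 4826 to 6531 CPM, but not as a group: 2 of them were more than 2-fold below all other libraries and 1 more than 2-fold above, and *Sox2* was highest there (551 CPM against 316 to 426 CPM). The myelin gene *Mbp* had 573 CPM there against 1.21 to 8.85 CPM in the other 5 libraries. Mesenchymal and meningeal markers summed to 45.03 CPM in wild-type replicate 3 and 12.96 to 27.03 CPM elsewhere, with 5 of 9 under 10 reads in every library. A single marker made that sum the highest, *Pdgfrb*, at 31.76 CPM against 0.148 to 3.50 CPM. Without it the library had 13.27 CPM, inside the 12.81 to 24.70 CPM of the others. Of the 8 markers left, 4 were highest there, while *Foxc1* was lowest there (9.24 CPM against 10.74 to 20.84 CPM). Endothelial markers stayed between 1.01 and 3.51 CPM, with *Cldn5* at 0 in every library, and microglia and macrophage markers between 0.805 and 1.54 CPM, with *C1qa* and *Ptprc* at 0. In bulk RNA, fewer cells of a type and less RNA per cell cannot be told apart.

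**Figure D4:**
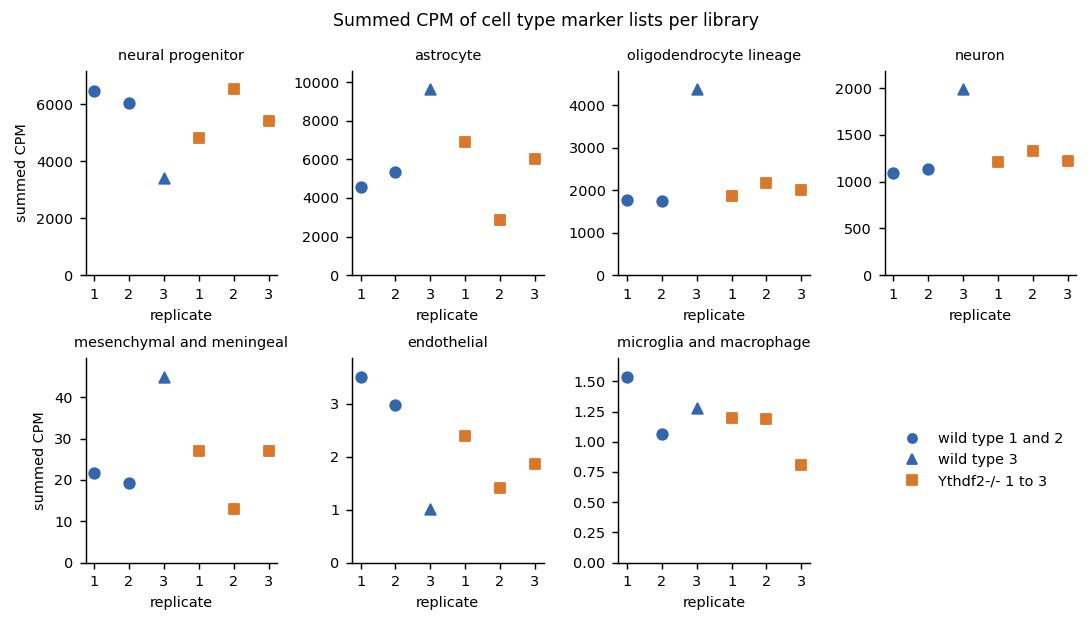
Summed CPM (y axes, from 0) of 7 marker gene lists in each library, by genotype and replicate. Wild-type replicate 3 is highest for the astrocyte, oligodendrocyte lineage, neuron and mesenchymal lists, the astrocyte and mesenchymal sums through *Gfap* and *Pdgfrb*, and lowest for the neural progenitor list at 3399 CPM.

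Without wild-type replicate 3 the comparison was of 2 wild-type with 3 *Ythdf2-/-* libraries, and 37 pathway genes were again tested, now among 13283. At an adjusted p of 0.05 edgeR called 0 of them, where it called 0.0151% of all genes. At an unadjusted p under 0.05 it counted 6 of 37 (16.2%), where 16.6% of all genes reached it, so the share is that of the transcriptome as a whole. Of the 6, 4 were higher in *Ythdf2-/-* (8.03% of all genes were) and 2 were lower (8.58% of all genes were). The higher genes were *Ltbp3* (log2 fold change 0.53, SE 0.10), *Bmpr2* (0.45, SE 0.14), *Smad1* (0.36, SE 0.11) and *Gdf11* (0.26, SE 0.09). The lower genes were *Tgfbr3* (-0.90, SE 0.33) and *Tgfbr2* (-0.83, SE 0.23). The smallest unadjusted p was 0.0016 for *Ltbp3*, with an adjusted p of 0.15 by edgeR. Limma-voom, which gave wild-type replicate 3 a weight of 0.0957 and the others 0.477 to 4.09, counted 11 of 37 at an unadjusted p under 0.05 (29.7%), where 28.1% of all genes reached it, and those 11 included all 6.

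In the same 5 libraries the genotypes did not overlap for 14 of 37 pathway genes (37.8%), where 38.9% of all genes tested did so. Of the 14, 10 were higher in *Ythdf2-/-* (18.8% of all genes were) and 4 were lower (20.1% of all genes were). The higher genes were *Gdf11*, *Ltbp3*, *Chrd*, *Bmpr1a*, *Bmpr1b*, *Bmpr2*, *Acvr2a*, *Smad1*, *Smad7* and *Smurf2*. The lower genes were *Fst*, *Tgfbr1*, *Tgfbr2* and *Tgfbr3*, of which the last 3 are the TGF-beta receptors in the list. The median log2 fold change of the 37 was 0.08, beside 0.01 over all genes, and 11 of the 37 (29.7%) changed direction when the library was left out, as did 30.7% of all genes. Changes of direction were largest for *Smad7* and *Id4*, from -0.85 to 1.02 and from -0.37 to 1.02.

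**Figure D5:**
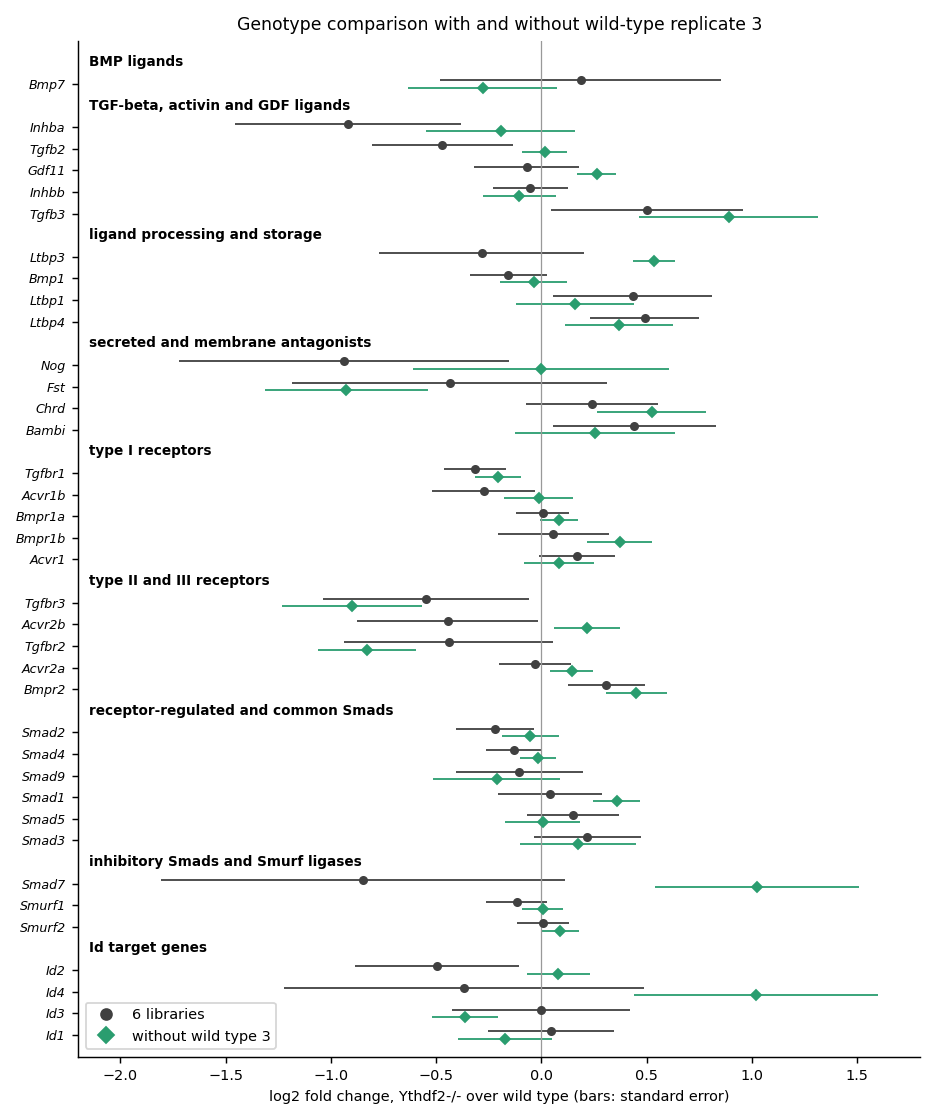
log2 fold change of *Ythdf2-/-* over wild type (x axis, bars are standard errors) for the 37 pathway genes tested, from all 6 libraries (circles) and without wild-type replicate 3 (diamonds). *Smad7*, *Id4*, *Ltbp3* and *Acvr2b* cross 0 between the fits, and the bars are shorter without that library for most genes.

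*Ythdf2* binds m6A, which is placed mostly within a consensus of which GGACT is a common form. In the longest coding transcript of each gene (GENCODE M21, sense strand), all 37 pathway genes tested held at least 1 GGACT, as did 93.4% of the 12288 tested genes with a transcript. The median density was 1.06 per kb beside 1.04 per kb over all genes tested. Among the 37, counts ran from 2 to 10, the latter in *Smad5*, *Tgfbr2* and *Bambi*, and per kb the highest was *Id1* (2.59) and the lowest *Inhba* (0.313). The letters alone do not show that a site is methylated.

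Beyond the 45 genes, 91 other genes of these pathways were listed, 89 were found as rows and 49 were tested. Of the 49, 24 had a log2 fold change above 0 and 25 below, and the median was -0.02. In edgeR's test 0 passed an adjusted p of 0.05 and 3 had an unadjusted p under 0.05 (6.12%, where 3.63% of all genes did), and these were also the 3 whose genotypes did not overlap (6.12%, where 10.2% of all genes did not). *Itgb8*, a subunit of the integrin that activates latent TGF-beta, had 141, 143 and 185 CPM in wild-type and 199, 237 and 199 CPM in *Ythdf2-/-* replicates 1, 2 and 3 (log2 fold change 0.44, SE 0.16). On the deposited FPKM its direction was the opposite, at -2.48 (SE 0.55) with a pseudocount of 1 and -5.55 (SE 1.15) with 0.1. *Tll1*, a protease related to *Bmp1*, had 0.599, 0.839 and 1.19 CPM against 1.88, 1.70 and 1.53 CPM (0.95, SE 0.37). *Ctgf*, a matricellular TGF-beta target, had 1.71, 0.992 and 1.56 CPM against 0.512, 0.666 and 0.644 CPM (-1.20, SE 0.38). Each had an adjusted p of 0.999 in that test.

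A log2 fold change of at least 1 was otherwise seen for target genes with overlapping genotypes. *Junb*, an early-response transcription factor gene, had 36.97, 34.3 and 202 CPM in wild-type and 35.6, 38.4 and 13.9 CPM in *Ythdf2-/-* replicates 1, 2 and 3 (-1.64, SE 0.80). *Atoh8*, a helix-loop-helix factor gene, had 0.770, 1.45 and 0.458 CPM against 1.36, 3.998 and 1.85 CPM (1.41, SE 0.60). *Gadd45b*, a stress-response gene, had 5.39, 9.31 and 17.8 CPM against 6.82, 7.26 and 1.69 CPM (-1.04, SE 0.65). For *Junb* the change lay in wild-type replicate 3 and *Ythdf2-/-* replicate 3, and its value without the former was -0.28 (SE 0.41). *Zfp423*, coding for a zinc finger partner of BMP Smads and described after its values were seen, had 12.8, 13.1 and 38.4 CPM against 28.7, 23.2 and 25.3 CPM. Limma-voom with quality weights called *Zfp423* (log2 fold change 1.04, adjusted p = 0.035) and *Itgb8* (0.51, adjusted p = 0.041), while edgeR with all 6 libraries gave *Zfp423* 0.26 (SE 0.46).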

How the data were processed

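Per the labels, mRNA was fragmented, libraries were made with a stranded kit, and the processing notes name Bowtie2 2.2.9, RSEM 1.2.15 and featureCounts with mm10. The authors deposited raw counts of reads per gene for 6 input libraries, unnormalized, and tables of expected counts, TPM and FPKM whose expected counts summed to 1.97% to 2.40% of the raw counts. The strand setting of the counting is not given in the sources used here, and 12 of the 45 genes share exon bases with a gene on the opposite strand. The study's methods describe RPKM from Cuffnorm, so which program made the deposited FPKM was not settled. Groups came from the labels.

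Raw counts were tested with edgeR 4.0.16 (filterByExpr, TMM, glmQLFit robust, glmQLFTest; Benjamini-Hochberg over 13112 genes) in R 4.3.3. CPM used TMM factors, and RPKM used the deposited gene length. DESeq2 1.42.0, limma 3.58.1 (voom with quality weights, and log2(FPKM + 1) or log2(FPKM + 0.1)), other scalings, filters and each library left out were alternatives. The log2(FPKM + pseudocount) scale understates changes of low genes. Tables and plots used Python 3.11.15 with pandas 2.3.3. The test was checked on counts drawn with known changes. Those counts had a common spread for all genes, no library set apart and changes larger than those of the pathway genes. The check therefore does not show how the test performs on these libraries. The members, gene lists and tests were chosen with earlier results of these data known. Values were printed for genes with an unadjusted p under 0.05, genotypes that did not overlap, an absolute log2 fold change of 1, a value of wild-type replicate 3 over 2-fold outside the others, or the highest RPKM of a role. They were also printed for *Bmpr1b*, *Tgfbr2*, *Tgfbr3*, *Id4* and *Zfp423*, which met none of these in the main test and were chosen with their values known. With 3 libraries against 3, an exact permutation test cannot go below 0.1. Promoter windows and positions came from RefSeq (GRCm38.p6). TPM and expected counts were not tested.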

Additional observations from a re-analysis of the deposited data

How the results depend on the processing

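The count of pathway genes at an adjusted p of 0.05 was 0 under every alternative run. At an unadjusted p under 0.05 it was 0 under each except limma-voom with quality weights (11) and fits that left out 1 library (0 to 6, with 6 without wild-type replicate 3). Over the libraries left out, genotypes did not overlap for 1 to 14 pathway genes, and with library size only for 0, where the main count is 1. The median log2 fold change was 0.17 and 0.15 on deposited FPKM with pseudocounts of 0.1 and 1, 0.078 with quality weights, and -0.10 to 0.080 over the libraries left out. The other pathway genes at an unadjusted p under 0.05 numbered 1 of 44 with at least 10 counts in every library (3.6% of all genes reached it), 5 of 81 with no filter (3.35%), 10 of 49 with quality weights (28.1%), and 1 to 10 over the libraries left out, with 10 of 50 without wild-type replicate 3 (16.6%). *Ythdf2* passed an adjusted p of 0.05 at a log2 fold change of -2.66 with at least 10 counts in every library, -2.67 by DESeq2, -2.64 with no filter, -2.67 with RLE factors and -2.61 with quality weights. It did not pass with library size only (-2.64, edgeR adjusted p = 0.072) or with the replicate block (-2.66, edgeR adjusted p = 0.9999), and ranged from -2.78 to -2.54 over the libraries left out, passing there only without wild-type replicate 3.

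Same-numbered libraries did not deviate together (correlations of -0.248, -0.244 and -0.394). In a replicate block fit the count of other pathway genes at an unadjusted p under 0.05 was 1 of 49 (1.4% of all genes), *Id3* was 0.16 and *Id4* was 0.0049, and 0 pathway genes were called.

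Of 31 named genes, none of which passed an adjusted p of 0.05 in the main test, 64 of 435 alternative log2 fold changes had the other sign. On FPKM with a pseudocount of 0.1 these were *Tgfbr1* 0.18, *Bmp7* -0.18, *Tgfb2* 0.12, *Ltbp3* 0.094, *Acvr2b* 0.73, *Id4* 1.51, *Bmp1* 1.03, *Bmpr1a* -0.18, *Bmpr1b* -0.40 and *Itgb8* -5.55. With a pseudocount of 1 they were *Tgfbr1* 0.17, *Bmp7* -0.16, *Ltbp3* 0.091, *Acvr2b* 0.15, *Id4* 0.53, *Bmp1* 0.23, *Bmpr1a* -0.080, *Bmpr1b* -0.29 and *Itgb8* -2.48. With quality weights they were *Bmp7* -0.26, *Tgfb2* 0.0081, *Ltbp3* 0.53, *Nog* 0.22, *Acvr2b* 0.18, *Smad7* 1.121, *Id1* -0.0087, *Id2* 0.14, *Id4* 1.202, *Gdf11* 0.23 and *Smad5* -0.031. *Id3* was 0.013 with library size only and 0.00059 with no filter, and *Bmpr1a* was -0.0013 by DESeq2 and -0.0015 with RLE factors. Over the libraries left out the ranges were *Bmp7* -0.28 to 0.52, *Tgfb2* -0.67 to 0.016, *Ltbp3* -0.57 to 0.53, *Fst* -0.93 to 0.016, *Acvr2b* -0.69 to 0.21, *Smad7* -1.33 to 1.02, *Id1* -0.17 to 0.32, *Id2* -0.75 to 0.080, *Id3* -0.36 to 0.38, *Id4* -1.12 to 1.02, *Gdf11* -0.21 to 0.26, *Bmpr1a* -0.032 to 0.084, *Bmpr1b* -0.12 to 0.37, *Smad1* -0.10 to 0.36, *Smad5* -0.033 to 0.27 and *Smurf2* -0.048 to 0.090. *Itgb8* and *Zfp423* passed the threshold with quality weights only. The cause was not tested. The count of pathway genes at or above 1 RPKM was 25 to 31, and that of genes with wild-type replicate 3 over 2-fold outside the others was 9 to 13 under alternatives added after seeing the data.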

Other observations

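Among the other pathway genes, 10 of 50 tested without wild-type replicate 3 had an unadjusted p under 0.05 by edgeR (20.0%, where 16.6% of all genes did), 0 passed an adjusted p of 0.05, and of the 10, 7 were higher in *Ythdf2-/-* (8.03% of all genes were) and 3 were lower (8.58% of all genes were). The higher genes were chosen by that p and included the co-receptors *Rgma* (log2 fold change 0.85, SE 0.34) and *Neo1* (0.43, SE 0.15), which take part in BMP and repulsive guidance signalling. The Smad coactivator genes *Crebbp* (0.52, SE 0.11) and *Ep300* (0.34, SE 0.12) were also among them. *Fkbp1a*, coding for a protein that binds type I receptors, was lower (-0.46, SE 0.10), as was the microfibril gene *Fbn1* (-0.41, SE 0.16). With wild-type replicate 3 in the fit, the log2 fold changes of these 6 genes ran from -0.24 to 0.11, and the genotypes overlapped for each.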
